A study of Mus musculus with 16 samples.

Results

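The replication-dependent histone genes were taken as every row of the expression table whose symbol begins with Hist1h, Hist2h, Hist3h or Hist4h. They made up 39 of the 12100 genes: 1 linker histone gene (Hist1h1c), 5 H2A, 12 H2B, 9 H3 and 12 H4 genes. Of these, 30 carry symbols of histone cluster 1, 8 of cluster 2 and 1 (Hist3h2a) of cluster 3. Levels came from poly(A)-selected, strand-specific RNA sequencing of mouse embryo fibroblasts (MEFs) with different states of Arkadia, the product of Rnf111, a RING-type ubiquitin ligase that acts in TGFβ signalling. The sim cells were Ark-/- MEFs infected with a retrovirus derived from Moloney murine leukaemia virus, in which the CAG promoter drives Arkadia with mutated SUMO-interacting motifs together with EGFP, and were used at early passages after infection. The rvWT cells were Ark-/- MEFs infected with the same kind of virus carrying wild-type Arkadia, so that Arkadia was driven by a foreign promoter in both. The null cells were Ark-/- MEFs and the WT cells Ark+/+ MEFs, both uninfected. All cells grew in DMEM with 10% serum, and TGFβ was added at 2.5 ng/ml. Set A of the library labels held null and WT at 0, 1, 4 and 16 h (8 libraries), and set B held sim and rvWT at 0, 1 and 4 h and null at 0 and 1 h (8 libraries). Each line, time and set had 1 library, and different times of 1 line stood in for replicates. The design text calls the 16 samples independent, but no label names separate cultures, or the number of embryos behind a line. The p-values therefore reflect variation among these libraries only, and part of it may be technical. No empty-virus line was analysed here, and infection cannot be told apart from Arkadia in comparisons of sim or rvWT with null.

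Replication-dependent histone genes supply the H1, H2A, H2B, H3 and H4 proteins that package newly made DNA, and their mRNAs are known to accumulate in S phase. Most of these mRNAs end in a conserved stem-loop, bound by the stem-loop binding protein SLBP, in place of a poly(A) tail. Libraries selected on poly(A) therefore capture them poorly, and what they capture can be a polyadenylated form made when a gene is read past the stem-loop. Hist1h1c, which encodes the linker histone H1.2, is known to give such polyadenylated mRNA as well, and it is described apart from the other 38 genes.

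The stem-loops are shown because they are the feature that sets these transcripts apart from ordinary mRNA. All 39 genes matched a GENCODE M21 transcript (GRCm38), and 28 of these held a 16-base stem-loop after the stop codon, with a 6-base stem and a 4-base loop. The search, on the transcript strand, required GG at the start, TT followed by T, A or C at the start of the loop, CC at the end and at most 1 unpaired stem position, and all 28 hits paired along the whole stem. In the DNA letters below, capitals mark the stem and lower case the loop, 5′ to 3′.
Hist1h1c, Hist3h2a, Hist2h2aa1 and 10 others: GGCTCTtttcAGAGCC
Hist1h4c, Hist1h4d, Hist1h4f, Hist1h4h, Hist1h4m and Hist1h4n: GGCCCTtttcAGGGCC
Hist1h2bb, Hist1h2bk, Hist1h3c and Hist1h3e: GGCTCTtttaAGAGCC
Hist1h4i and Hist2h4: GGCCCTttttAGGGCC
Hist1h4b and Hist1h4j: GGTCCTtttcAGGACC
Hist2h2ac: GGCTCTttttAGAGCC
The 10 H4 genes with a hit had stems of their own, and the H1, H2A, H2B and H3 genes with a hit shared 1 stem, while the loops differed in their last base alone. In the annotated Hist1h1c transcript 840 bases followed the stem-loop and a poly(A) signal (AATAAA or ATTAAA) lay in the last 40 bases. Hist3h2a had 1643 bases after its stem-loop and Hist1h4i 330, each with a poly(A) signal at the end, whereas Hist2h2ac had 57 and Hist2h2aa1 had 35, with none. Hist1h2bc, the best-measured core histone gene, had 742 annotated bases after the stop codon and no stem-loop in this transcript. Of the 11 transcripts with no hit, 6 had fewer than 40 annotated bases after the stop codon, so no match there says little about the gene. Among the genes with a stem-loop hit, a long annotated 3′ end did not by itself go with a high median level. The 14 genes whose transcript ran more than 100 bases past the stem-loop had a median level of 0.894 FPKM over the 16 libraries, and the other genes with a stem-loop had a median of 0.957 FPKM. The 14 held Hist1h1c (11.3 FPKM), Hist3h2a (2.98), Hist1h4i (2.73) and Hist1h4d (1.90), and the others Hist2h2aa1 (3.03). Hist1h2bc (8.91 FPKM), with no hit, is in neither group.

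Promoter windows, from 250 bases before to 50 after the start, were in the RefSeq table (GRCm38.p6) for 36 of the 39 genes. The windows of 3 genes are shown, the linker gene and a core gene each of H2A and H4 whose levels differed between lines, with matches on either strand in capitals. The motifs were the TATA box written as TATAAA, the CCAAT box as CCAAT, the octamer as ATTTGCAT and the H1 box as AAACACA. Overlap between motifs was allowed.
Hist1h1c, chr13:23738557-23738856, strand +: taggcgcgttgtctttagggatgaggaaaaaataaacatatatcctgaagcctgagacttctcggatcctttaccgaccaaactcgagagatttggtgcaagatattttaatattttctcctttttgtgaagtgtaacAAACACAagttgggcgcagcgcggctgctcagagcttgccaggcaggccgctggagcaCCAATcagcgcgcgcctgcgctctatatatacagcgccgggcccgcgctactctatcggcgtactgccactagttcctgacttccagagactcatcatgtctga
Hist2h2ac, chr3:96220831-96221130, strand -: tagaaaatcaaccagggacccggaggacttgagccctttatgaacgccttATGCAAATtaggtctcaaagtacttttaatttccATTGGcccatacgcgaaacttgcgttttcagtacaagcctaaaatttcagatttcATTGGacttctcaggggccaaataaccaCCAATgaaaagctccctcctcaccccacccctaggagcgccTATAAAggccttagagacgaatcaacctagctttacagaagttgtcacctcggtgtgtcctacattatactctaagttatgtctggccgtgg
Hist1h4i, chr13:22041313-22041612, strand -: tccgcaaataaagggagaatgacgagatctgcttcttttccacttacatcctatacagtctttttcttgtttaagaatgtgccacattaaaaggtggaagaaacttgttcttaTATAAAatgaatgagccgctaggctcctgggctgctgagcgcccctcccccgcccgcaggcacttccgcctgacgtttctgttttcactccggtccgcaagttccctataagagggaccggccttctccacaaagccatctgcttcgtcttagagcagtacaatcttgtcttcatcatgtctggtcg
CCAAT occurred in 28 of the 36 windows (77.8%), against 37.4% of all 32851 promoter windows of the table. It was in the windows of the H1 gene and of all 5 H2A, 10 H2B and 9 H3 genes that had one, and in 3 of 11 H4 windows. The octamer was in 9 windows (25.0%), 3 of 5 H2A and 6 of 10 H2B, and in 1.74% of all promoter windows. TATAAA was in 20 windows (55.6%) and in 13.6% of all windows. AAACACA, known from H1 promoters, was in 3 windows (8.33%), near the 7.18% of all windows. The 3 were that of Hist1h1c and 2 of 10 H2B. These are letter matches anywhere in a window and on either strand, so a TATAAA match need not be the TATA box of its gene. The TATAAA of Hist1h4i, for one, lies far before the start. The windows are not all separate counts. Those of Hist1h2ae and Hist1h2bg overlap on opposite strands, so the same octamer is counted for both. The windows of Hist2h2aa1 and Hist2h2aa2, of Hist2h3c1 and Hist2h3c2, and of Hist1h4m and Hist1h4n are nearly alike in sequence. The matches say nothing of which factors bound there.

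Levels were given by the authors as FPKM (fragments scaled to transcript length and to library size), with no read counts, so that the depth of each library is unknown. Most histone genes were near the bottom of the measured range. The lowest row mean of the table was 0.251 FPKM in set A and 0.250 FPKM in set B. Below, no filter means none beyond this floor, which a gene can pass through the lines with high levels alone. Hist1h1c had the highest mean over the 16 libraries, 11.3 FPKM, followed by Hist1h2bc (H2B) at 8.91 FPKM. Next came Hist2h2aa1 (H2A) at 3.03, Hist3h2a (H2A) at 2.98, Hist1h4i (H4) at 2.73 and Hist1h4d (H4) at 1.90 FPKM. The highest H3 genes were Hist1h3c at 1.01 and Hist1h3b at 0.859 FPKM, and Hist1h2ba, known as the testis H2B gene, had 1.30 FPKM. All 39 genes together made up 0.0142% to 0.0149% of the summed FPKM in sim, 0.0123% to 0.0149% in rvWT, 0.0250% to 0.0265% in null of set B, 0.0124% to 0.0138% in null of set A and 0.00413% to 0.00553% in WT. Values of near-identical genes are uncertain, since no source used here says how reads with several mapping places were handled. In 13 libraries an identical value stood in 2 or more histone rows, which involved 9 rows in all, and 5 H4 rows (Hist1h4a, Hist1h4b, Hist1h4c, Hist1h4j and Hist1h4k) all had 0.109 FPKM in the WT 16 h library. The share of a transcript's 50-base windows found in another of the 39 was 0% for Hist1h1c, 2.00% for Hist3h2a, 28.2% for Hist1h2bc, 28.9% for Hist1h4i and 31.0% for Hist2h2ac. It was 89.2% for Hist2h2aa1 and 100% for its neighbour in the list, Hist2h2aa2, and ran from 24.8% to 93.9% over the 9 H3 genes. The rows of a type are thus not independent measurements.

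**Figure D1:**
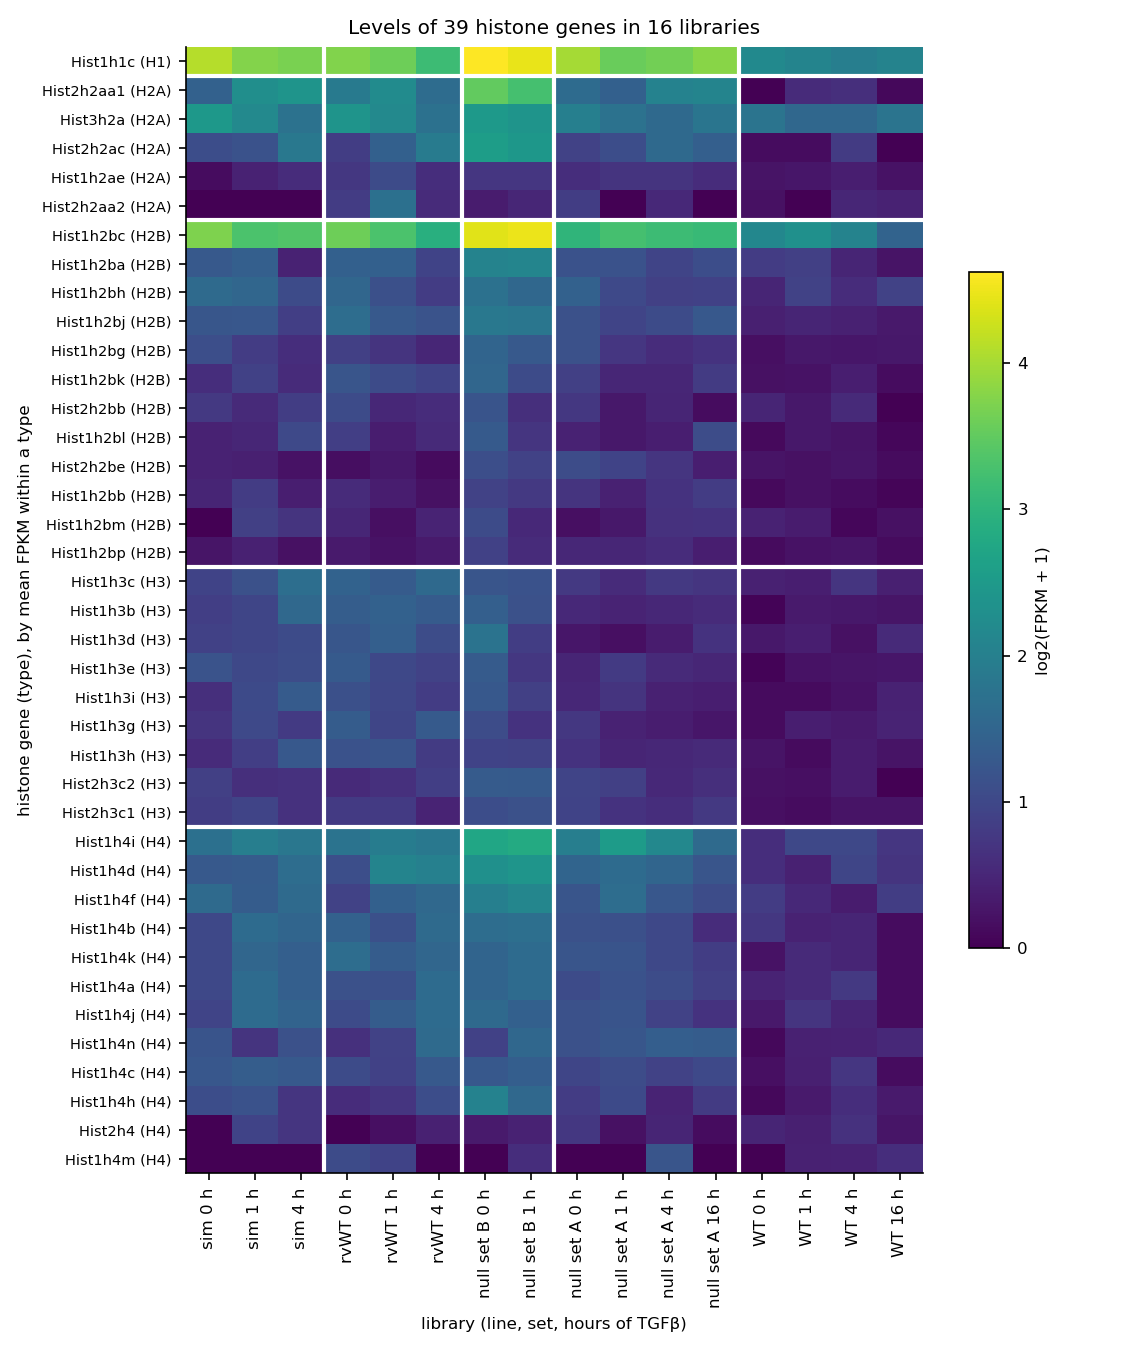
Heat map of log2(FPKM + 1) for the 39 histone genes (vertical axis, by type and mean level) in the 16 libraries (horizontal axis, by line, set and hours of TGFβ). Hist1h1c and Hist1h2bc stand out in sim, rvWT and null, and less so in WT, where Hist3h2a is above Hist1h2bc at 16 h. The 4 WT libraries are the darkest block, dark standing for low levels.

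The labels were checked with Rnf111. It had 56.0 to 62.1 FPKM in sim, 103 to 126 in rvWT, 0.435 and 0.526 in null of set B, 0.121 to 0.198 in null of set A and 14.5 to 15.1 in WT, as the labels have it. Of 10 fibroblast markers 9 were measured, and their summed level was 2649 to 6608 FPKM. Epithelial markers (4 of 7 measured, led by Krt19) summed to 10.7 to 42.4 FPKM outside WT and to 272 to 523 FPKM in WT. Germ cell markers (3 of 5 measured: Hist1h2ba itself, Ddx4 and Sycp3) summed to 1.58 to 6.71 FPKM outside WT and to 16.3 to 82.6 FPKM in WT. Of the endothelial markers 2 of 6 were measured, with sums of 2.76 to 10.8 FPKM outside WT and 0.248 to 0.953 FPKM in WT, and of the haematopoietic markers 2 of 6, with sums of 5.75 to 15.4 FPKM.

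Histone levels were compared between null and WT. No label names more than 1 line of either genotype, so loss of Arkadia and other differences between the lines cannot be told apart. Null MEFs of set A had higher levels of Hist1h1c and of core histone genes than WT MEFs. Hist1h1c had 14.9, 10.9, 11.5 and 13.0 FPKM in null at 0, 1, 4 and 16 h, against 3.60, 3.25, 2.93 and 3.17 FPKM in WT. Every null library was above every WT library, and the means were 12.6 ± 1.8 FPKM in null and 3.24 ± 0.28 FPKM in WT (SD, n = 4 each), a ratio of 3.88. On the log2(FPKM + 1) scale the difference was 1.67 ± 0.07 (SE; limma adjusted p = 7.11e-05). This scale understates differences of genes at low levels. In bulk RNA, fewer cells that make a transcript and less transcript per cell cannot be told apart.

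The other 38 genes summed to 43.7, 43.1, 42.1 and 38.3 FPKM in null of set A at 0, 1, 4 and 16 h, against 14.5, 17.6, 19.0 and 13.3 FPKM in WT. The lowest null sum was thus well above the highest WT sum. By type the means were 7.26 ± 1.07 FPKM in null against 3.14 ± 0.53 in WT for H2A, 15.6 ± 0.8 against 6.02 ± 1.59 for H2B, 4.50 ± 0.58 against 1.95 ± 0.50 for H3 and 14.5 ± 3.0 against 4.98 ± 1.25 for H4 (SD, n = 4 each). At least 1 FPKM was reached by 13 to 17 of the 39 genes in null of set A and by 3 or 4 in WT.

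**Figure D2:**
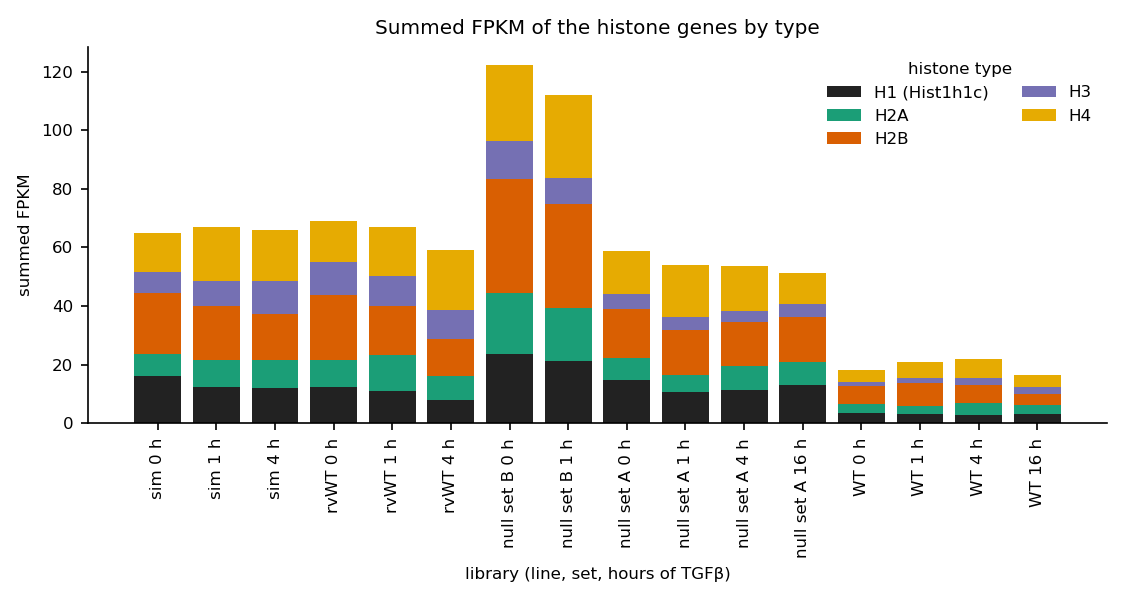
Stacked bars of summed FPKM (vertical axis, from 0) by histone type in each of the 16 libraries (horizontal axis). The null libraries of set B are the tallest, the WT libraries the shortest, and sim, rvWT and null of set A lie between them.

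Only 7 of the 39 genes averaged 1 FPKM or more in set A and entered the test, and a gene can pass that filter through the null libraries alone, so the count is a description. Of the 7, 6 were higher in null and 0 lower by limma with Benjamini-Hochberg adjustment over all genes tested, where 67.5% of all genes tested were called, 30.1% higher and 37.4% lower. The median difference of the 7 was 1.15, and that of all genes tested was -0.07. With no filter, 26 of the 39 genes were higher and 0 lower, against 30.8% of all rows higher and 35.4% lower. With neither the 1 FPKM filter nor a test, 25 of the 39 genes (64.1%) had every null library above every WT library. This held for 25.8% of all rows. The reverse held for 0 of the 39, against 30.6% of all rows. A gene can pass the floor of the table through the null libraries too, so the counts of 25 and 26 are also a description. The 25 included 9 of 12 H2B, 7 of 12 H4, 5 of 9 H3 and 3 of 5 H2A genes besides Hist1h1c.

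Among the core genes Hist1h2bc had 7.14, 8.57, 8.02 and 7.66 FPKM in null at 0, 1, 4 and 16 h, against 3.40, 4.01, 3.17 and 1.76 FPKM in WT (difference 1.15 ± 0.14, limma adjusted p = 0.00124). Hist1h4i had 2.92, 4.80, 3.46 and 2.03 FPKM in null, against 0.515, 1.01, 1.01 and 0.652 FPKM in WT (1.23 ± 0.13, limma adjusted p = 0.000692). For both genes the groups did not overlap. Hist2h2aa1 had 2.07, 1.68, 3.13 and 3.24 FPKM in null, against values near 0, 0.487, 0.532 and 0.0714 FPKM in WT (1.47 ± 0.19, limma adjusted p = 0.00156). These groups did not overlap either. Hist1h4d had 1.81, 2.06, 1.84 and 1.32 FPKM in null, against 0.528, 0.338, 0.956 and 0.616 FPKM in WT. Hist1h4d (0.78 ± 0.14, limma adjusted p = 0.00521) and Hist1h4f (0.66 ± 0.18, limma adjusted p = 0.0207) completed the list. Hist1h4f was no longer called when the WT 1 h or the WT 4 h library was left out, or after quantile normalization. Hist3h2a was the tested gene that did not pass: it had 2.998, 2.33, 1.98 and 2.47 FPKM in null and 2.44, 1.93, 1.92 and 2.44 FPKM in WT (0.11 ± 0.08, limma adjusted p = 0.247), and the groups overlapped. Hist2h2ac missed the filter; it had 0.873, 1.13, 1.99 and 1.63 FPKM in null, against 0.111, 0.115, 0.743 and 0 FPKM in WT. The testis gene Hist1h2ba also missed it, with 1.25, 1.23, 0.920 and 1.12 FPKM in null, against 0.757, 0.825, 0.393 and 0.190 FPKM in WT. For both of these the null libraries all lay above the WT libraries. Of the leading H3 genes, Hist1h3b had 0.446, 0.378, 0.430 and 0.477 FPKM in null, against 0.0258, 0.262, 0.227 and 0.204 FPKM in WT. Hist1h3c had 0.696, 0.483, 0.693 and 0.630 FPKM in null, against 0.347, 0.313, 0.631 and 0.331 FPKM in WT. Hist1h3b did not overlap between the groups, and Hist1h3c did, through the WT 4 h library.

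**Figure D3:**
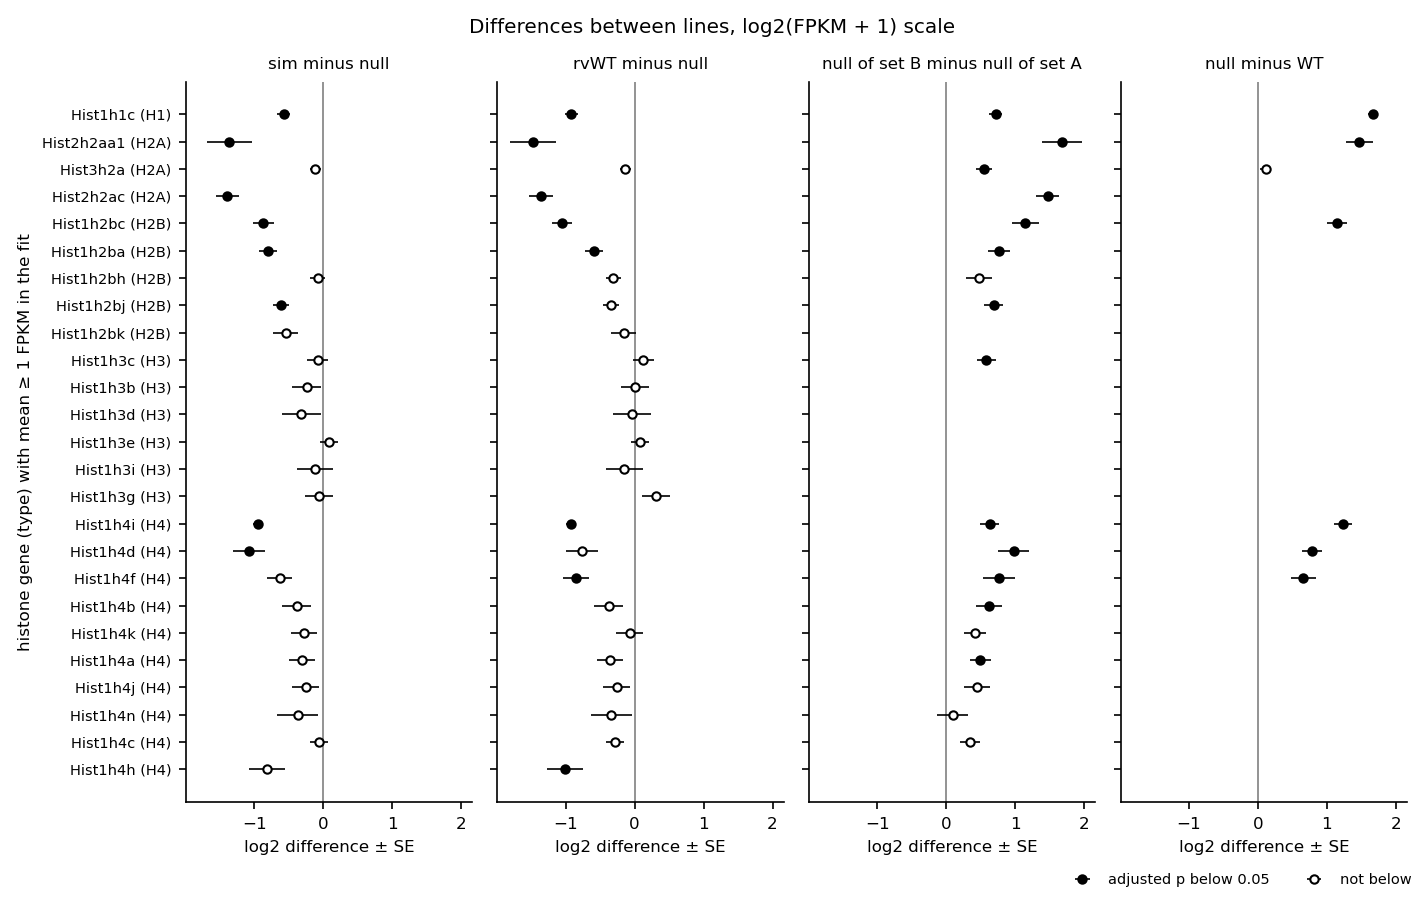
Differences on the log2(FPKM + 1) scale (horizontal axis, points with SE bars) for the histone genes tested (vertical axis) in 4 comparisons, each in its own panel. Filled points passed a limma adjusted p below 0.05; they lie left of 0 for sim and rvWT minus null and right of 0 for null of set B minus null of set A and for null minus WT.

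The lists of genes that act beside the histone genes did not share this direction. Of all genes tested, 30.1% were higher and 37.4% lower in null. Of 32 DNA replication and S-phase genes 3 were higher and 17 lower in null, with a median difference of -0.40. Among them Cdc6, which loads the replicative helicase, fell (-1.13 ± 0.10, limma adjusted p = 0.000382), as did Mcm2, a helicase subunit (-0.83 ± 0.08, limma adjusted p = 0.000579). Of 24 genes of histone mRNA 3′ end formation and turnover 2 were higher and 12 lower, among them Lsm11, part of the U7 small nuclear ribonucleoprotein that cuts histone pre-mRNA (-0.77 ± 0.06, limma adjusted p = 0.000336). Slbp itself had 35.4 to 51.0 FPKM in null of set A and 41.6 to 47.5 FPKM in WT. Of 15 mitosis genes 2 were higher and 4 lower, and of 18 genes of histone chaperones and histone acetylation 3 were higher and 6 lower, among them Chaf1b, a subunit of the chromatin assembly factor CAF-1 (-1.05 ± 0.13, limma adjusted p = 0.00109). Of 10 replication-independent histone genes, whose mRNAs are polyadenylated, 2 were higher and 3 lower: H2afx rose by 1.19 ± 0.14 (limma adjusted p = 0.000915) and H2afz by 0.85 ± 0.08 (limma adjusted p = 0.000450), while H3f3b, an H3.3 gene, fell (-0.53 ± 0.04, limma adjusted p = 0.000203). Markers of other cell types moved with this comparison. Of 4 epithelial markers 3 were higher in null and 1 was lower: the lower sum in null came from Krt19, which averaged 3.44 FPKM in null and 408 FPKM in WT, whereas Krt7 averaged 19.1 FPKM in null and 2.49 FPKM in WT. The lower germ cell sum came from Ddx4, with 2.69 FPKM in null and 52.4 FPKM in WT, while Sycp3 had 1.12 FPKM in null and 0.353 FPKM in WT. Endothelial markers summed to 6.20 FPKM in null and 0.644 FPKM in WT, the direction of the histone genes, and of 2 haematopoietic markers 1 was higher and 1 lower. Of 9 fibroblast markers 8 were higher and 1 lower, and the part of none of these lists in the result was tested.

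Arkadia was put back into null cells in rvWT, and with mutated SUMO-interacting motifs in sim, and both were compared with null of set B. Histone levels were lower in both lines than in null of set B. Hist1h1c had 16.2, 12.5 and 12.0 FPKM in sim and 12.3, 11.2 and 8.04 FPKM in rvWT at 0, 1 and 4 h, against 23.6 and 21.2 FPKM in null of set B at 0 and 1 h. No sim or rvWT library reached the lower null value. The difference was -0.57 ± 0.09 for sim (SE; limma adjusted p = 0.00807) and -0.92 ± 0.09 for rvWT (limma adjusted p = 0.00149). The sim call for Hist1h1c was lost without null 0 h (-0.62, limma adjusted p = 0.0586) and without null 1 h (-0.53, limma adjusted p = 0.0769). The other 38 genes summed to 48.8, 54.5 and 54.0 FPKM in sim and 56.5, 55.8 and 51.2 FPKM in rvWT, against 98.7 and 90.7 FPKM in null of set B. Null had no 4 h library in set B, and the fits took time as a term.

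Of 25 histone genes tested, 8 were lower and 0 higher in sim minus null, where 34.7% of all genes tested were called, 20.8% lower and 13.9% higher. In rvWT minus null 8 were lower and 0 higher, where 38.6% of all genes tested were called, 22.6% lower and 16% higher. After quantile normalization the called genes split the other way, with 2143 higher and 1952 lower for sim and 2414 higher and 2035 lower for rvWT, while 0 histone genes were higher. These 2 comparisons share the null libraries, so they are not separate evidence. A gene can pass the filter, or the floor of the table, in set B through the null libraries alone, so the counts here are a description. The median difference of the 25 was -0.37 for sim and -0.34 for rvWT, and that of all genes tested was -0.02 and -0.03. With no filter, 12 of the 39 were lower in each comparison, against 20.8% of all rows lower and 13.1% higher for sim, and 22.8% lower and 15.1% higher for rvWT. Every sim library was below both null libraries for 19 of the 39 genes (48.7%), against 32.5% of all rows, and above both for 0, against 19.3% of all rows. Every rvWT library was below for 19 (48.7%), against 32.7% of all rows, and above for 2 (Hist1h3c and Hist2h2aa2), against 20% of all rows.

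Hist1h4i had 2.25, 2.94 and 2.55 FPKM in sim and 2.39, 2.86 and 2.61 FPKM in rvWT, against 5.68 and 6.09 FPKM in null of set B. The groups did not overlap, with differences of -0.94 ± 0.08 for sim (limma adjusted p = 0.000907) and -0.93 ± 0.08 for rvWT (limma adjusted p = 0.000778). Hist2h2ac had 1.13, 1.25 and 2.58 FPKM in sim and 0.792, 1.69 and 2.81 FPKM in rvWT, against 4.94 and 4.42 FPKM in null of set B (-1.39 ± 0.17, limma adjusted p = 0.00328, and -1.36 ± 0.17, limma adjusted p = 0.00305). Hist1h2bc, with 12.2, 8.90 and 9.32 FPKM in sim and 11.2, 8.96 and 6.53 FPKM in rvWT, against 20.4 and 21.4 FPKM in null, was lower in sim (-0.87 ± 0.15, limma adjusted p = 0.00963) and in rvWT (-1.06 ± 0.15, limma adjusted p = 0.00447). These 3 genes thus lay below null of set B in both lines, but in neither line wholly below null of set A. There Hist1h4i had 2.03 to 4.80 FPKM, a range that held every sim and rvWT value. Hist1h2bc had 7.14 to 8.57 FPKM in null of set A, below every sim library and overlapping rvWT.

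Hist1h2ba had 1.45, 1.63 and 0.367 FPKM in sim and 1.68, 1.67 and 0.903 FPKM in rvWT, against 3.16 and 3.28 FPKM in null (-0.80 ± 0.13, limma adjusted p = 0.00744, and -0.59 ± 0.13, limma adjusted p = 0.0177). Hist2h2aa1 had 1.71, 3.87 and 4.25 FPKM in sim and 2.74, 3.71 and 2.11 FPKM in rvWT, against 10.3 and 8.57 FPKM in null, and was lower in both lines as well (-1.36 ± 0.33, limma adjusted p = 0.0290, and -1.47 ± 0.33, limma adjusted p = 0.0205). Hist1h4d, with 1.46, 1.50 and 2.14 FPKM in sim and 1.15, 3.25 and 3.05 FPKM in rvWT, against 4.01 and 4.34 FPKM in null, was lower in sim. Its rvWT difference of -0.76 missed the threshold (limma adjusted p = 0.0527), although the rvWT libraries all lay below both null libraries. The remaining calls were Hist1h2bj (-0.61 ± 0.12, limma adjusted p = 0.0139) and Hist1h4d (-1.07 ± 0.23, limma adjusted p = 0.0205) in sim. In rvWT they were Hist1h4f (-0.85 ± 0.19, limma adjusted p = 0.0190) and Hist1h4h (-1.01 ± 0.27, limma adjusted p = 0.0337). Hist1h4h had 1.14, 1.25 and 0.633 FPKM in sim and 0.495, 0.649 and 1.13 FPKM in rvWT. Its null libraries, with 3.12 and 1.96 FPKM, carried it past the filter. Leaving out null 0 h gave 3 calls for sim and 4 for rvWT, and leaving out null 1 h gave 2 and 5. The calls over all genes fell as well, to 1581 for sim and 1946 for rvWT without null 0 h and to 1730 and 2006 without null 1 h, against 3807 and 4230 with all libraries. Hist2h2ac and Hist1h4i were called in both lines, and Hist1h1c and Hist1h2bc in rvWT, whichever library was left out. Leaving out the rvWT 0 h library left 5 calls for rvWT, among 2595 over all genes.

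The H3 genes did not all follow the same pattern. Of the 9 H3 genes 6 passed the filter, all of cluster 1, and 0 of these were called in either comparison, and 0 had an unadjusted p under 0.05. Their median difference was -0.10 for sim and 0.04 for rvWT. Hist1h3c had 0.901, 1.21 and 2.19 FPKM in sim and 1.74, 1.51 and 1.98 FPKM in rvWT, against 1.33 and 1.23 FPKM in null, and Hist1h3b had 0.813, 0.947 and 1.94 FPKM in sim and 1.56, 1.69 and 1.51 FPKM in rvWT, against 1.63 and 1.20 FPKM in null. H3 held 14.5% to 20.7% of the sum of the 38 genes in sim and 18.6% to 19.9% in rvWT, against 9.83% and 13.1% in null of set B. Below the filter, the cluster 2 genes Hist2h3c1 and Hist2h3c2 were lower than both null libraries in every sim and every rvWT library. Hist2h3c1 had 0.792, 0.930 and 0.575 FPKM in sim and 0.716, 0.732 and 0.382 FPKM in rvWT, against 1.14 and 1.21 FPKM in null. Hist2h3c2 had 0.828, 0.545 and 0.576 FPKM in sim and 0.464, 0.560 and 0.819 FPKM in rvWT, against 1.50 and 1.46 FPKM in null. Whether H3 genes differ from the other types was not tested.

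In the S-phase list 1 gene was higher and 8 lower in sim, and 4 were higher and 5 lower in rvWT, of 32 in each. The lower genes were 25% of the list in sim, against 20.8% of all genes tested, and 15.6% in rvWT, against 22.6%. The higher genes were 3.12% in sim, against 13.9%, and 12.5% in rvWT, against 16%. Rrm2, a subunit of ribonucleotide reductase, fell in both (-0.74 ± 0.05 in sim, limma adjusted p = 0.000478, and -0.83 ± 0.05 in rvWT, limma adjusted p = 0.000272). Of the replication-independent histone genes H2afj fell by 0.98 ± 0.09 in sim (limma adjusted p = 0.00123) and by 0.95 ± 0.09 in rvWT (limma adjusted p = 0.00112), and H3f3b rose by 0.64 ± 0.06 (limma adjusted p = 0.00152) and by 0.63 ± 0.06 (limma adjusted p = 0.00135). All 9 measured fibroblast markers were higher in both lines. Other markers were lower, as the histone genes were: 3 of 3 epithelial markers tested in each line, 1 of 2 endothelial markers in sim and 2 of 2 in rvWT, and 1 of 2 haematopoietic markers in each. Of the 2 germ cell markers tested, 1 (Hist1h2ba itself) was lower in each. The epithelial sum averaged 17.1 FPKM in sim and 13.9 FPKM in rvWT, against 40.5 FPKM in null of set B, and the endothelial sum 5.47 FPKM in sim and 3.70 FPKM in rvWT, against 10.7 FPKM. The haematopoietic sum averaged 7.47 FPKM in sim and 6.55 FPKM in rvWT, against 13.4 FPKM in null of set B. The part of these markers in the result was not tested.

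The direct comparison of sim with rvWT asked whether the SUMO-interacting motifs made a difference to histone levels. Rnf111 differed as well, with 56.0 to 62.1 FPKM in sim and 103 to 126 FPKM in rvWT. The motifs and the level of Arkadia mRNA therefore cannot be told apart. None of the 25 tested genes was called (0 of 25), where limma called 0.493% of all genes tested (0.356% higher and 0.137% lower), and 2 had an unadjusted p under 0.05. Hist1h1c differed by 0.35 ± 0.08 (limma adjusted p = 0.156), with means of 13.6 ± 2.3 FPKM in sim and 10.5 ± 2.2 FPKM in rvWT (SD, n = 3 each), and Hist1h2bj by -0.26 ± 0.10 (limma adjusted p = 0.287). The sim library was the higher one for Hist1h1c at all 3 times. Every sim library was below every rvWT library for 4 of the 39 genes (10.3%: Hist1h2ae, Hist1h2bk, Hist1h3d and Hist2h2aa2), against 4.26% of all rows, and above for 0, against 3.66% of all rows. With no filter 0 of the 39 were called, against 0.289% of all rows higher and 0.0992% lower. The summed level of the other 38 was 52.5 ± 3.2 FPKM in sim and 54.5 ± 2.9 FPKM in rvWT.

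Null MEFs were sequenced in both sets, and their histone levels were higher in set B than in set A. Hist1h1c had 23.6 and 21.2 FPKM in null of set B at 0 and 1 h, against 14.9, 10.9, 11.5 and 13.0 FPKM in null of set A at 0, 1, 4 and 16 h (0.71 ± 0.10, limma adjusted p = 0.000701). The sum of the other 38 was 98.7 and 90.7 FPKM in set B, against 38.3 to 43.7 FPKM in set A. The sums of sim (48.8 to 54.5 FPKM) and rvWT (51.2 to 56.5 FPKM) were therefore below null of set B and above null of set A. Of 18 genes tested, 13 were higher and 0 lower in set B, where 35.7% of all genes tested were called, 20.8% higher and 14.9% lower, and the median difference was 0.62 for the 18 and 0.04 for all genes. A gene can pass the filter here, or the floor of the table in set B, through null of set B. The counts of this paragraph are therefore a description. With no filter 22 of the 39 were higher and 0 lower, against 19.7% of all rows higher and 13.8% lower. Both libraries of set B were above all 4 of set A for 27 of the 39 genes (69.2%), against 31.1% of all rows, and below for 0, against 21% of all rows.

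The genes called were, besides Hist1h1c, Hist2h2ac (1.47 ± 0.17, limma adjusted p = 0.000270), Hist1h2bc (1.14 ± 0.20, limma adjusted p = 0.00198), Hist2h2aa1, Hist1h2bj, Hist1h2ba, Hist3h2a, Hist1h4i, Hist1h4d, Hist1h3c, Hist1h4f, Hist1h4b and Hist1h4a, with differences from 0.50 to 1.68. Leaving out null 0 h of set B gave 5 calls, among 1118 over all genes, and leaving out null 1 h gave 8, among 2219, against 3943 over all genes with every library. For Hist2h2ac the difference of 1.47 between null cells of the 2 sets stands beside -1.39 for sim and -1.36 for rvWT against null of set B. Hist2h2ac in sim and rvWT (0.792 to 2.81 FPKM) covered the range of null of set A (0.873 to 1.99 FPKM). For lines compared within set B, the set is the same, but WT was in set A alone and sim and rvWT in set B alone, so line and set cannot be told apart in any comparison of sim or rvWT with WT. In the null cells the 2 endothelial markers were both higher in set B, with a mean sum of 10.7 FPKM in set B and 6.20 FPKM in set A, and of 3 epithelial and 2 germ cell markers tested 1 of each list was higher and 1 lower. The S-phase list had 0 genes higher and 4 of 32 lower (12.5%) in set B, near the 14.9% of all genes, and the list of 3′ end formation and turnover 1 higher and 10 lower. Small RNAs, such as microRNAs and small nucleolar RNAs, held 6.30% and 6.92% of a library's FPKM in null of set B and 7.91% to 8.78% in null of set A, and the part of the markers and small RNAs in the result was not tested.

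**Figure D4:**
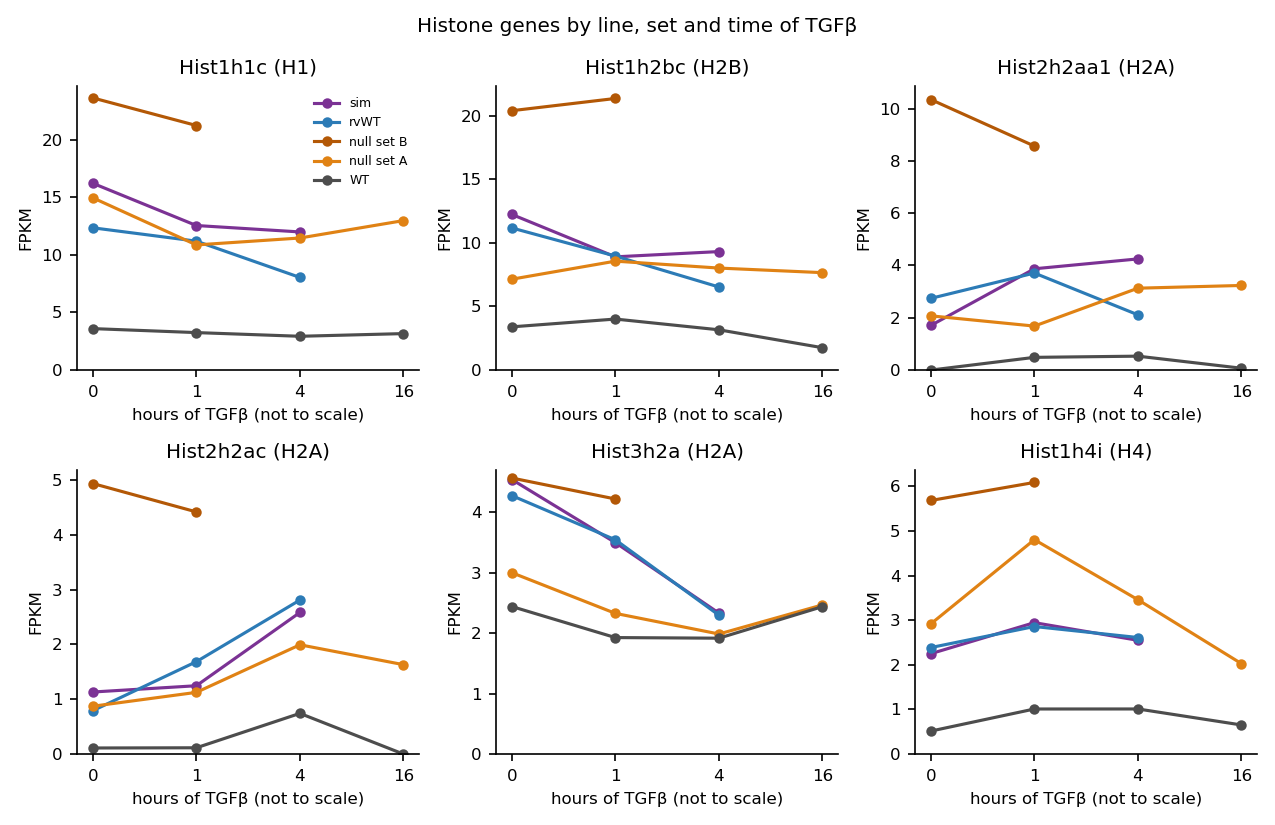
FPKM (vertical axes, from 0) of 6 histone genes by hours of TGFβ (horizontal axes, times evenly spaced), 1 point per library and 1 line per line of cells and set. Null of set B lies highest in all 6 panels at 0 and 1 h and WT lowest at every time, with WT and null of set A closest together for Hist3h2a.

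The TGFβ response was taken over all 16 libraries with the 5 time series as terms, so that each library was set against its own line and set. Few histone genes responded, and those that did moved in both directions. At 1 h 0 of 18 tested genes were called, where limma called 5.96% of all genes tested (3.95% higher and 2.01% lower), and 3 had an unadjusted p under 0.05. At 4 h 1 was higher and 4 lower, where 39% of all genes tested were called, 11.9% higher and 27.1% lower. The shares of all genes depend on the scaling: with median-ratio scaling 1899 genes were higher and 1815 lower at 4 h, and with the values as deposited 1317 and 2990. The histone calls at 4 h, 5.56% of the 18 higher and 22.2% lower, did not exceed the shares of all genes as deposited in either direction. With no filter 11.3% of all rows were higher and 25.8% lower.

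Hist2h2ac rose at 4 h. It had 2.58 FPKM at 4 h against 1.13 at 0 h in sim, 2.81 against 0.792 in rvWT, 1.99 against 0.873 in null of set A and 0.743 against 0.111 in WT, so that it was higher in 4 of 4 series (0.76 ± 0.13, limma adjusted p = 0.00163). Hist3h2a fell at 4 h. It had 2.33 FPKM at 4 h against 4.54 at 0 h in sim, 2.296 against 4.27 in rvWT, 1.98 against 2.998 in null of set A and 1.92 against 2.44 in WT, lower in 4 of 4 series (-0.50 ± 0.09, limma adjusted p = 0.00195). Both are H2A genes, from clusters 2 and 3.

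Hist1h1c fell at 4 h in 4 of 4 series (-0.38 ± 0.07, limma adjusted p = 0.00401), with 12.0 FPKM at 4 h against 16.2 at 0 h in sim, 8.04 against 12.3 in rvWT, 11.5 against 14.9 in null of set A and 2.93 against 3.60 in WT. Hist1h2ba fell in 4 of 4 series (-0.48 ± 0.12, limma adjusted p = 0.0119), and Hist1h2bh in 3 of 4, WT being the exception (-0.43 ± 0.14, limma adjusted p = 0.0360). The Hist1h2bh call was lost under 9 of 26 other settings, among them a pseudocount of 0.1 and the fits without the 0 h library of either null set, of sim or of rvWT, without null 1 h of set B, or without the 4 h library of sim or of rvWT (limma adjusted p up to 0.112). With set A alone 0 of 7 histone genes tested were called at 4 h, but only 16 of all 10976 genes tested were called there, so this 0 says nothing particular to the histone genes. With set B alone 1 of 25 was higher and 5 lower, among 4266 of 10958 genes called. The set A values were -0.29 for Hist1h1c (limma adjusted p = 0.255) and -0.33 for Hist3h2a (limma adjusted p = 0.236). Of the 9 H4 genes tested, all 9 had a positive difference and 0 were called (median 0.19), and all 4 H2B genes had a negative one, of which 2 were called (median -0.33). The H4 rows share reads, as above, and are not 9 separate measurements.

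**Figure D5:**
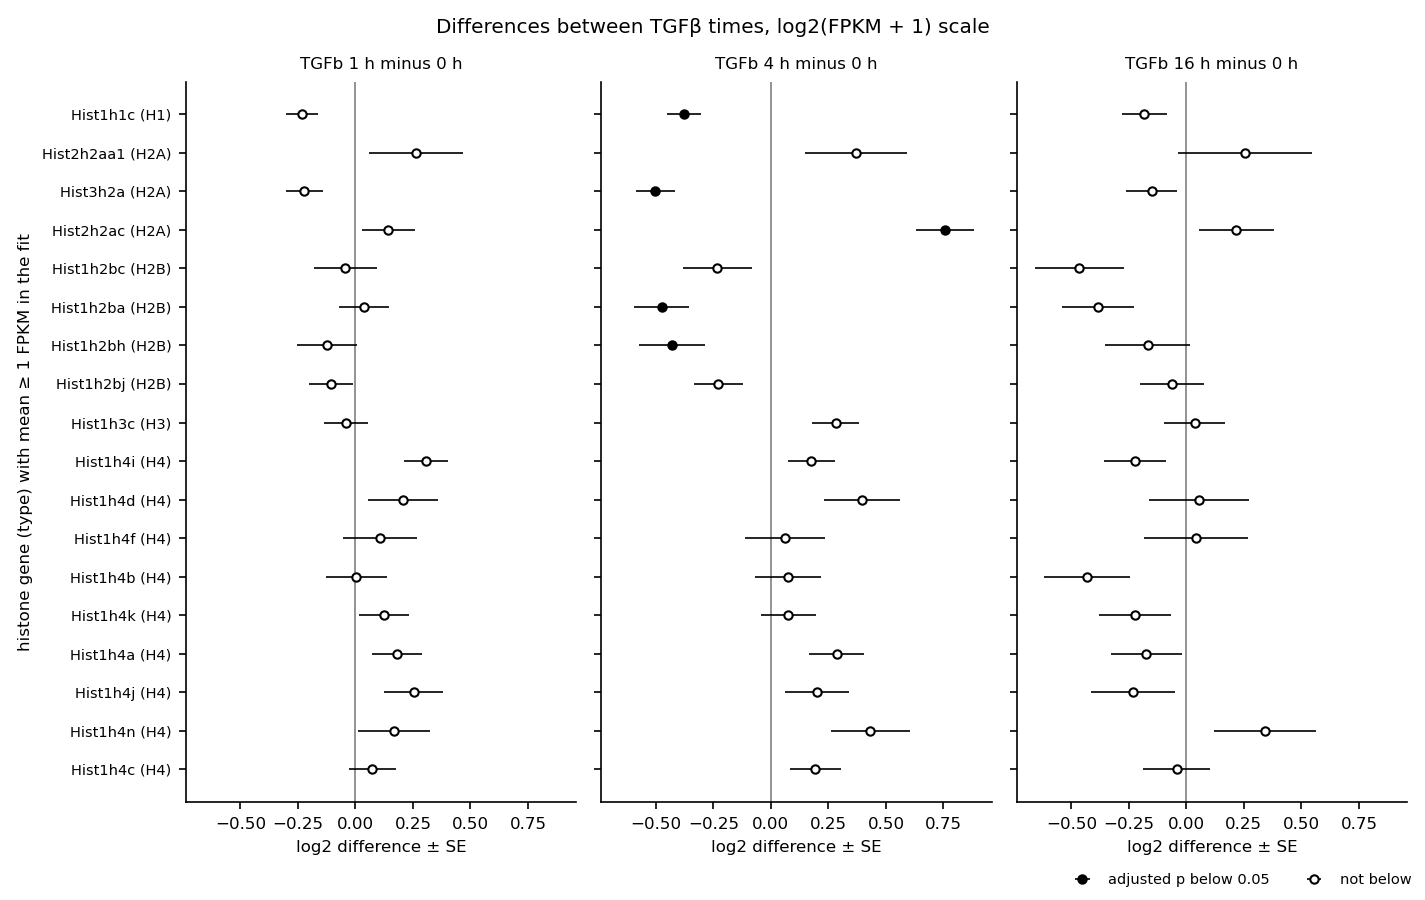
Differences from 0 h on the log2(FPKM + 1) scale (horizontal axis, points with SE bars) for the 18 histone genes tested (vertical axis) at 1, 4 and 16 h of TGFβ. Filled points, all at 4 h, passed a limma adjusted p below 0.05, with Hist2h2ac on the right of 0 and the other 4 on the left.

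At 16 h, measured in null of set A and WT alone, 0 of 18 genes differed from 0 h, where limma called 19.4% of all genes tested (6.84% higher and 12.5% lower), and 3 had an unadjusted p under 0.05. Between 16 h and 4 h 0 were called, where limma called 1.87% of all genes tested (0.86% higher and 1.01% lower), and 6 had an unadjusted p under 0.05. With no filter 1 of the 39 was called at 1 h, against 3.74% of all rows higher and 2.04% lower, and 2 at 16 h, against 6.43% higher and 11.8% lower. Hist2h2ac had 1.63 FPKM in null of set A and was listed at 0 in WT at 16 h, against 1.99 and 0.743 FPKM at 4 h. In the S-phase and mitosis lists, at 4 h 0 of 32 S-phase genes were higher and 11 lower and 0 of 15 mitosis genes were higher and 7 lower, and at 16 h 9 S-phase and 8 mitosis genes were lower and 0 higher. The lower shares at 4 h were 34.4% and 46.7%, against 27.1% of all genes tested. At 16 h they were 28.1% and 53.3%, against 12.5%. Slbp, whose product binds the stem-loop, fell by 0.43 ± 0.08 at 4 h (limma adjusted p = 0.00347) and by 0.34 ± 0.11 at 16 h (limma adjusted p = 0.0491). The replication-independent linker gene H1f0 fell by 0.51 ± 0.07 at 4 h (limma adjusted p = 0.000460) and by 0.42 ± 0.09 at 16 h (limma adjusted p = 0.00899).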

How the data were processed

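The authors deposited 1 table of FPKM values for 12100 genes in 16 libraries. Per the labels' protocols, RNA with an integrity number above 7.5 was selected on poly(dT) beads and made into strand-specific libraries. Per the submitters' processing notes, CASAVA 1.8.2, STAR 2.3.0e, SAMtools, Cufflinks 2.2.1 and genome build mm9 were used, with no role or order given. No source used here names the annotation or says how reads with several mapping places were handled, and read depth is unknown.

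Values were analysed as log2(FPKM + 1). Genes averaging 1 FPKM or more in the libraries fitted were tested with limma 3.58.1 (limma-trend, R 4.3.3) and Benjamini-Hochberg adjustment over all genes tested, at an adjusted p below 0.05. Lines were compared with time as a term: null with WT in set A, sim and rvWT with null in set B. TGFβ times and the null libraries of the 2 sets were compared over all 16 libraries with the 5 time series as terms. The test was checked on simulated data.

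Genes named were Hist1h1c, all called histone genes, with values per library for the 2 highest of each type and the 3 called with the smallest p per comparison, and up to 4 members of each other list. The members, lists and tests were chosen with earlier results of these data known. Alternatives were other pseudocounts (0.1 and 5), filters, scalings, robust variances, small RNA rows left out, each set alone, and leaving out each library. Stem-loops came from GENCODE M21 transcripts and promoters from RefSeq (GRCm38.p6). No coordinates in the build of the files are given.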

Additional observations from a re-analysis of the deposited data

Results flagged for a closer look

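Hist2h2ac (H2A) in WT had 0.743 FPKM at 4 h of TGFβ, far from the other 3 WT libraries, which had 0.111 at 0 h, 0.115 at 1 h and 0 at 16 h. The gap to the nearest library was 0.845 of the range. Hist1h3c (H3) in WT had 0.631 FPKM at 4 h, against 0.347, 0.313 and 0.331 FPKM at 0, 1 and 16 h, with a gap of 0.892 of the range. The same WT 4 h library stood apart for both genes. The 4 values are different TGFβ times, not replicates. At 4 h Hist2h2ac was higher than at 0 h in 4 of 4 series and Hist1h3c in 3 of 4. Were the values replicates, chance alone would mark about 1 in 20 such groups of 4. Groups of the other named genes, and of null of set A, were screened too. Both genes were under 1 FPKM in every WT library.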

How the results depend on the processing

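Counts of called histone genes moved mainly with the filter. With no filter they were 26 for null minus WT (6 with it), 22 for null of set B minus null of set A (13), 1 at 1 h (0) and 2 at 16 h (0). With a mean of at least 5 FPKM they were 2, 2, 2 and 2 for null minus WT, rvWT minus null (8), sim minus null (8) and the null sets, and 1 at 4 h (5), where fewer genes were tested. With a pseudocount of 0.1 the count at 16 h was 1, and with no filter as well, a setting chosen after seeing the data, counts were 27 for null minus WT, 1 at 1 h, 3 at 16 h and 1 for 16 h minus 4 h. One fit over all 16 libraries gave 15 for null minus WT. Quantile normalization gave 9 at 4 h (5 higher and 4 lower), and set A alone gave 0. Calls over all genes moved as well. Under settings other than leaving out a library they ran from 16 to 4489 at 4 h and from 5626 to 8024 for null minus WT. They ran from 3273 to 4580 for rvWT minus null, 3005 to 4100 for sim minus null and 3412 to 4798 between the null sets. Leaving out a library gave 6266 to 7343 for null minus WT and 2658 to 4779 at 4 h. Where no construction shows the cause, the cause was not tested. Leaving out each library in turn gave 5 to 6 calls for null minus WT, 4 to 9 for rvWT minus null, 2 to 9 for sim minus null, 0 to 0 for sim minus rvWT, 5 to 14 between the null sets, 0 to 1 at 1 h, 4 to 7 at 4 h, 0 to 1 at 16 h and 0 to 1 for 16 h minus 4 h. Of 964 alternative values for 44 results on single genes, 892 kept direction and side of the threshold, 71 lost the call (54 by leaving out a library), 1 gained it and 0 changed direction. The called genes of the whole table split differently by scaling: at 16 h 755 were higher and 1384 lower as deposited, 1047 and 946 with median-ratio scaling, and for null minus WT 3306 and 4105 became 3619 and 3639. No paired analysis was possible because the labels give the lines no replicate numbers in common, other than the matching by time and by time series that the fits already held as terms. Low levels, shared reads and 1 library per condition limit what single genes can show.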
